A study of Mus musculus with 12 samples.

Results

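The proximal thoracic aorta of sham-operated mice was described from 5 bulk RNA-seq libraries, out of 12 in the series. They were chosen by their treatment label alone and carry the numbers 1, 5, 8, 10 and 11 of the sample titles, so that they are called sham 1, sham 5, sham 8, sham 10 and sham 11. The label puts all 5 under sham surgery with normal drinking water, in male mice of a strain spelled C56BL/6J. No transgene, deletion or drug is named for them. The sources used here do not give age, time since surgery, batch or the number of mice behind each library, so the spread reported is that between samples and may be technical. The tissue was frozen and powdered whole, so the wall, its perivascular fat and any attached tissue were read together. In such bulk samples, fewer cells of a type and less RNA per cell cannot be told apart.

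Levels of different genes are compared as TPM, which divides the reads of each gene by its annotated exon length and scales every library to the same total. Levels of 1 gene between libraries are also given as normalised read counts, the scale of the deposited table. Where 5 values follow each other, they belong to sham 1, 5, 8, 10 and 11 in that order, and every ± is an SD over these libraries (n = 5). Recovered depth was 16592806, 16740960, 14840253, 16386974 and 14078885 reads. Marker genes were grouped in 42 lists by cell type, compartment or function. Of each list, the 3 members with the highest mean are named, and any further member named was chosen after its values were seen. By the mean of log2(TPM + 1), the libraries were highest for 4, 7, 23, 5 and 3 of the 42 lists. They were lowest for 12, 1, 3, 16 and 10. Counts of members with a library highest or lowest are to be read beside these, since the share over all genes was not counted. At 1 TPM or more in every library, 12835 genes were found, 11527 of them protein-coding. The male label was checked first: Xist, the RNA of the inactive X chromosome, averaged 0.0652 TPM, and the Y-linked Ddx3y held 62.2, 66.8, 56.2, 62.9 and 55.0 TPM.

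2 libraries held reads of airway epithelium and cartilage genes, and each list sum that moved by over 1.5 times without sham 8 is also given without sham 8 and without both libraries. Over 14 airway and lung epithelium markers, the reads summed to 8, 81, 297206, 21 and 18471. That was 2.003% of all reads in sham 8 (95% Wilson interval 1.996 to 2.010, for counting error only) and 0.131% in sham 11 (0.129 to 0.133). Sham 8 was far above every other library and sham 11 came second, while sham 1, 5 and 10 were near 0. In sham 8, 496 genes were at least 10 times above the highest of sham 1, 5 and 10, and sham 11 ranked second for 416 of them. Sham 11 held a median 5.75% of the sham 8 level of these genes, with quartiles of 3.59% and 9.13%. The same 496 genes took 7.21% of TPM in sham 8, 0.468% in sham 11 and at most 0.0243% in the rest. The parts of attached tissue and of reads carried over between libraries were not tested, so it is not known whether the sham 11 values came from its own tissue. Leaving the 496 genes out of the TPM denominator moved none of 42 mean list sums beyond the SD between libraries. With shares this small it could hardly do so, and the result says little. By the mean of log2(TPM + 1), sham 8 then became the highest library for the macrophage, neutrophil, dendritic, Hox, heat shock and hypoxia, clock and sex lists.

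The wall of the aorta has an intima of endothelial cells, a media of smooth muscle between elastic lamellae, and an adventitia of fibroblasts, collagen, nerves and small vessels. Smooth muscle carries load through actin and myosin that are anchored to elastin and collagen, and mutations in several of these proteins cause heritable aneurysms. Fat around the thoracic aorta of the mouse resembles brown fat, whose mitochondria burn lipid to make heat through the uncoupling protein Ucp1.

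The most abundant transcripts came from mitochondria, contractile cells and fat. The 13 protein-coding mitochondrial genes took 30.4, 27.1, 23.3, 34.6 and 30.2% of TPM, the most in sham 10 and the least in sham 8. Their 3 leaders were mt-Co1, a subunit of cytochrome c oxidase, at 77741 ± 9950 TPM, mt-Cytb of complex III at 57370 ± 7203 TPM, and mt-Nd1 of complex I at 43611 ± 9257 TPM. Among mt-Co1's 100-base windows, 30.8% also occur in nuclear pseudogenes, and for mt-Co2, mt-Co3 and mt-Atp6 the share is 99.5% or more, so their levels are uncertain. For mt-Cytb and mt-Nd1 it is 0.

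Acta2, smooth muscle alpha actin, was the leading nuclear protein-coding gene, with 11537, 11689, 10964, 8314 and 8197 TPM. It ranked first in 4 libraries and took rank 3 in sham 8, where Bpifa1 and Scgb1a1 of the airway stood above it. Of the 25 leading nuclear protein-coding genes, 7 belonged to an adipocyte list, 2 to the contractile list and 2 to the airway list. The adipocyte genes were Cfd, Scd1, Ucp1, Car3, Cox8b, Fabp4 and Cidea. The contractile genes were Acta2 and Myl9. Mgp, an inhibitor of vascular calcification, was the leading matrix gene, with 4824, 3152, 4570, 3323 and 3708 TPM.

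**Figure D1:**
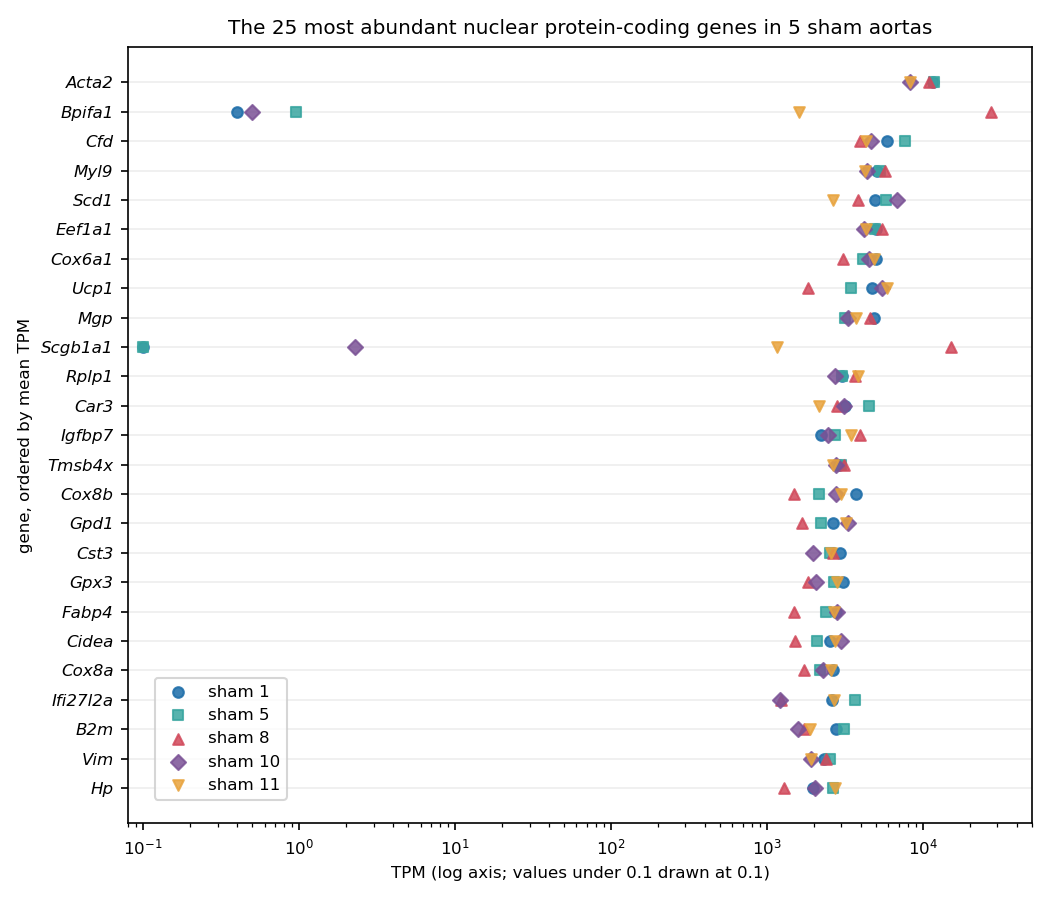
TPM (log axis) of the 25 nuclear protein-coding genes with the highest mean over the 5 sham libraries, with 1 marker per library. Most rows span less than a factor of 3, whereas Bpifa1 and Scgb1a1 lie near 0 in sham 1, 5 and 10 and reach 27496 and 15202 TPM in sham 8.

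Among the rest of the 25, Cox6a1 (4303 ± 774 TPM) and Cox8a (2285 ± 367 TPM) are subunits of the respiratory chain, and Eef1a1 (4783 ± 536 TPM) and Rplp1 (3256 ± 479 TPM) serve translation. Igfbp7, a secreted binding protein of the vessel wall, held 2960 ± 708 TPM, and Tmsb4x, which binds actin monomers, held 2880 ± 187 TPM. Of Gpd1, Cst3, Gpx3, Ifi27l2a, B2m, Vim and Hp, each averaged between 2130 and 2607 TPM. Bpifa1 and Scgb1a1 owed their places to sham 8, and without that library Dstn and Aldoa took them. Without sham 8 and sham 11, Dstn and Eef2 did.

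A small set of genes made up much of the message. The 10 leading genes held 8.53, 8.18, 11.96, 8.20 and 7.31% of nuclear protein-coding TPM, and the leading 1000 held between 63.6 and 65.9%. When the 25 leading genes were drawn up for each library, 12 genes were in all 5 sets and 42 in at least 1. Sham 8 alone contributed 9 of these 42, against 0, 0, 3 and 1 for sham 1, 5, 10 and 11. Among long non-coding RNAs, Gm10076 (88.9, 119, 111, 330 and 813 TPM), Bvht (227, 356, 346, 210 and 321 TPM) and Malat1 (148, 179, 199.5, 206 and 358 TPM) led. Gm10076 was highest in sham 11 and shares 29.5% of its 100-base windows with Rpl41, so that reads of the ribosomal gene cannot be told apart from its own there.

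The contractile list of the media was read in full in every library, all 20 members being at 1 TPM or more. Its summed level was 22273, 23575, 23609, 17469 and 17303 TPM, a mean of 20846 ± 3204 TPM or 2.08% of all TPM. Sham 10 and sham 11 lay below the other libraries, which differed little among themselves. Leaving out sham 8 gave 20155 ± 3242 TPM (n = 4).

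Myl9, the regulatory light chain of smooth muscle myosin, held 5101, 5319, 5707, 4402 and 4223 TPM. Myh11, the smooth muscle myosin heavy chain, held 1497, 1922, 1779, 1299 and 1257 TPM. Both were lowest in sham 11 and second lowest in sham 10, as was Acta2 itself. Next by mean came Cnn1 (calponin, 890 ± 184 TPM), Tpm2 (a tropomyosin, 705 ± 101 TPM), Itga8 (an integrin chain, 654 ± 96.8 TPM) and Tpm1 (416 ± 74.0 TPM), which are named after their values were seen. Myocd, the coactivator that drives this program together with Srf, was at 10.6 ± 2.14 TPM, and Srf at 39.99 ± 14.8 TPM.

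1 library stood apart from the other 4 for 2 of the 20 contractile genes, judged by Dixon's ratio. This ratio divides the gap between an extreme value and its neighbour by the whole range, and a value above 0.71 marks a library as apart. Over all 15810 genes with a mean normalised count of at least 10, 11% were marked in this way, and 7.12% had sham 8 apart and high. These shares were not matched to level, and the share marked was smaller among genes with means of at least 100. A gene near 0 elsewhere reaches a mean of 10 only through its high library, and the filter then largely fixes its call. The 2 contractile genes were Des, desmin, at 61.8, 55.2, 430, 45.5 and 59.0 TPM, and Mylk, whose kinase switches on myosin. Des had sham 8 high, and averaged 55.4 ± 7.10 TPM without it (n = 4) against 130 ± 168 TPM with it. Mylk was at 162, 188, 202, 141 and 172 TPM, with sham 10 apart and low on the normalised scale.

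Tagln, transgelin, is commonly among the strongest smooth muscle transcripts, yet it was read at 32.6, 42.3, 52.6, 48.9 and 40.2 TPM. Of its annotated exonic bases, 67.9% overlap another gene, and 33.2% of its 100-base windows occur in a transcript of another gene. The sources used here do not say how the counting treated such reads, and the part this has in the level was not tested. Pericyte genes, which mark mural cells of small vessels, summed to 730 ± 79.6 TPM, led by Rgs5 (362 ± 81.3 TPM), Abcc9 (94.8 ± 19.1 TPM) and Rgs4 (65.8 ± 16.3 TPM).

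Contractile genes are classic targets of the serum response factor Srf, which binds the CArG box, a CC and a GG that flank a core of 6 A or T bases. The 250 bases before the annotated start are shown for Acta2 and Myl9, the leading contractile genes, and for Actc1, the cardiac actin, which was read at uneven levels. Sequences are from RefSeq (build GRCm38.p6), read 5′ to 3′ on the strand of the gene. Capitals mark boxes whose core has at most 1 base other than A or T. They span chr19:34255374-34255623 (minus strand), chr2:156775214-156775463 (plus strand) and chr2:114052876-114053125 (minus strand), each upstream of its gene.
Acta2: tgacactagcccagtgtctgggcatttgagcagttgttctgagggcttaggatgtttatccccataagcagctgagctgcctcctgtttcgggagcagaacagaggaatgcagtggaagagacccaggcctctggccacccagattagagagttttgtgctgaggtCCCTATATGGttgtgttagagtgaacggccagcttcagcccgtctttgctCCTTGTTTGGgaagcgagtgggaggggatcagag
Myl9: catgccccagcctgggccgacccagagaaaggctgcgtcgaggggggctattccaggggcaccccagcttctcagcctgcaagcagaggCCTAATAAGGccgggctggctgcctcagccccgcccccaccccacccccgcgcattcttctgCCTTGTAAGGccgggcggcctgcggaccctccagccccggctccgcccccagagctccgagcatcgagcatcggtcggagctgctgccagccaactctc
Actc1: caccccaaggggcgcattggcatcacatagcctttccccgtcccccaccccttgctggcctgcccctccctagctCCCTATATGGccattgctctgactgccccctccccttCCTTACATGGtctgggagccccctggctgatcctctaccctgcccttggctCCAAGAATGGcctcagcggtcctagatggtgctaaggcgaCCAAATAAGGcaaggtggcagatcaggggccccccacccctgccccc
Acta2 has 2 such boxes, which begin 84 and 34 bases before the start. Myl9 has 2, at 161 and 99 bases, and Actc1 has 4, at 175, 138, 87 and 47 bases. An exact box is among them for Myl9 and Actc1. Promoters of 15 of the 20 contractile genes were in the table, counting 250 bases before to 50 after the start. Of these 15, 1 held an exact box and 2 held a box with at most 1 other base. Over all 32851 promoters in the table, 1.63% held an exact box and 9.98% the wider form. These shares are counted per promoter, whereas the contractile counts are per gene. The box reads the same on both strands. A match describes the letters only, and no match says only that they are not in this window.

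The 6 actins were read at very different levels. Acta2 took 79.3 ± 1.72% of their summed TPM, with a range over libraries from 76.4 to 80.5%. Cytoplasmic Actb followed with 12.2 ± 0.599% and Actg1 with 5.29 ± 0.537%, and enteric Actg2 held 2.31 ± 0.416%. Actc1 of cardiac muscle took 0.143, 1.11, 2.46, 0.440 and 0.224%, and Acta1 of skeletal muscle 0.00485, 0.0876, 0.00330, 0.0107 and 0.00697%, highest in sham 5. The share of Acta2 differed little between libraries, while that of Actc1 was highest in sham 8 and next in sham 5.

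Reads can separate these actins, as a stretch of 90 coding bases shows. Sequences are from GENCODE M21 transcripts and run 5′ to 3′, coding bases 832 to 921 of Acta2, and capitals mark the bases that differ from Acta2.
Acta2: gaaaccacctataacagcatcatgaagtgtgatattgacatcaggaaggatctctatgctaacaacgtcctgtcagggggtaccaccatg
Actg2: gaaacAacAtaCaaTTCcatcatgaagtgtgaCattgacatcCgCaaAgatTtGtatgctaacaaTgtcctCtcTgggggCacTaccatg
Actc1: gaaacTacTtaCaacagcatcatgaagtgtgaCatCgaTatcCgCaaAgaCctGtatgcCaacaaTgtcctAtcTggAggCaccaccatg
Acta1: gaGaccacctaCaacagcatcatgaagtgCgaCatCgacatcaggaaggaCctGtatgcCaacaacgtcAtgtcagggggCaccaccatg
Actb: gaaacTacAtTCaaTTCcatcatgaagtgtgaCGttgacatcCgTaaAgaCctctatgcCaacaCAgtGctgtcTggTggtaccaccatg
Actg1: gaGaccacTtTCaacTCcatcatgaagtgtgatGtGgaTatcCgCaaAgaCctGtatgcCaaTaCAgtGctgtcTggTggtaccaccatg
Between 10 (Acta1) and 21 (Actg1) of the 90 bases differ from Acta2. Over the whole coding sequence, identity to Acta2 lay between 81.5% (Actg1) and 85.4% (Acta1). No 100-base window of Acta2, Actg2, Actc1 or Acta1 occurs in a transcript of another gene. For Actg1, 51.1% of windows do, mostly in Gm12715, so that its level is uncertain.

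Matrix genes were led by small secreted proteins, with collagens and elastin at lower levels per length. Elastic fibre genes summed to 1831, 2419, 2522, 1825 and 2106 TPM. Their leaders were Mfap4, a microfibril-associated glycoprotein, at 642 ± 121 TPM, elastin itself (Eln) at 506 ± 99.4 TPM, and Ltbp1, which holds latent TGF-beta in the matrix, at 135 ± 18.01 TPM. Eln was at 391, 527, 655, 513 and 444 TPM, highest in sham 8 and lowest in sham 1. None of the 16 elastic fibre genes examined had a library apart, against 11% of all genes examined, a share not matched to level.

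Fibrillar collagens, the rope-like chains of the wall, summed to 452, 884, 1054, 606 and 705 TPM. Sham 1 was the lowest library for 10 of the 11 collagen genes and sham 8 the highest for 9. Col3a1 led with 179, 448, 488, 251 and 290 TPM, before Col1a2 (186 ± 44.9 TPM) and Col1a1 (103 ± 27.7 TPM). Without sham 8 the sum averaged 662 ± 181 TPM (n = 4), against 740 ± 235 TPM with it. Col2a1, the collagen of cartilage, was at 0.116, 0.229, 12.5, 0.200 and 0.748 TPM, so that its reads lay in sham 8 and, at a lower level, in sham 11.

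Basement membrane genes summed to 1266 ± 192 TPM and were led by Col18a1 (231 ± 51.0 TPM), the laminin chain Lamb2 (222 ± 23.8 TPM) and Col4a1 (165 ± 31.7 TPM). Sham 1 was lowest for 13 of these 22 genes. Proteoglycan and matricellular genes summed to 10366 ± 1501 TPM. After Mgp, their leaders were Sparc, a collagen-binding protein, at 1421, 1949, 2004, 1183 and 1045 TPM, and the proteoglycan Bgn at 1278, 1526, 1312, 1077 and 1155 TPM. Sparc was lower in sham 10 and sham 11 than in the other libraries.

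Endothelial genes of the intima varied little in sum. They summed to 845, 899, 783, 753 and 904 TPM, so that the highest library was 1.20 times the lowest. Gene by gene their median coefficient of variation, the SD over the mean of the normalised counts, was 0.181, above the 0.143 of contractile and 0.177 of elastic fibre genes. All 20 members were at 1 TPM or more in every library, and none had a library apart, against 11% of all genes examined. None had a coefficient of variation above 0.5, against 13.7% of all genes examined. That share was 5.11% for means of 100 to 1000 normalised counts and 1.60% above, so a count of 0 among 20 genes is near it at these levels. Pecam1, an adhesion protein of endothelial junctions, was at 163, 176, 117, 113 and 167 TPM. Cldn5, a tight junction protein, was at 101, 99.1, 122, 82.5 and 111 TPM. Cdh5, the endothelial cadherin, was at 75.5, 80.2, 59.0, 75.4 and 64.5 TPM. Sham 10 was the lowest library for Pecam1 and Cldn5, and sham 8 for Cdh5. Nos3, the nitric oxide synthase of this layer, averaged 20.7 ± 4.82 TPM and is named after its values were seen.

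Lymphatic endothelial genes were lower and less even, with 123, 286, 212, 80.2 and 99.5 TPM in sum. Ccl21a, a chemokine of lymphatic vessels, was at 24.5, 163, 71.6, 19.8 and 17.2 TPM and set most of that order. It shares 50.3% of its 100-base windows with copies of the gene, so its level is uncertain. Lyve1, a hyaluronan receptor that some macrophages also make, held 36.1 ± 9.99 TPM, and Sema3d held 28.8 ± 4.42 TPM. Prox1, the transcription factor that defines lymphatic endothelium, reached at most 0.544 TPM in any library.

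Fibroblast genes of the adventitia summed to 4884, 5515, 5741, 2982 and 3850 TPM. Sham 10 was the lowest library for 16 of the 18 members, and sham 5 the highest for 12. Gsn, gelsolin, which severs actin filaments, led with 2047, 2150, 2883, 1282 and 1433 TPM. Ly6a, a surface protein of adventitial progenitors and of endothelium, was at 575, 672, 492, 275 and 561 TPM. Dpt, a collagen-binding matrix protein, was at 368, 554, 484, 209 and 317 TPM. The 3 genes shared their lowest library, sham 10, and none of the 18 had a library apart, against 11% of all genes examined. On the deposited scale sham 10 was also the lowest for the list. The mitochondrial share of TPM was highest in sham 10, and with mitochondrial and haemoglobin genes left out of the denominator sham 10 was still the lowest for the fibroblast list and sham 5 the highest.

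**Figure D2:**
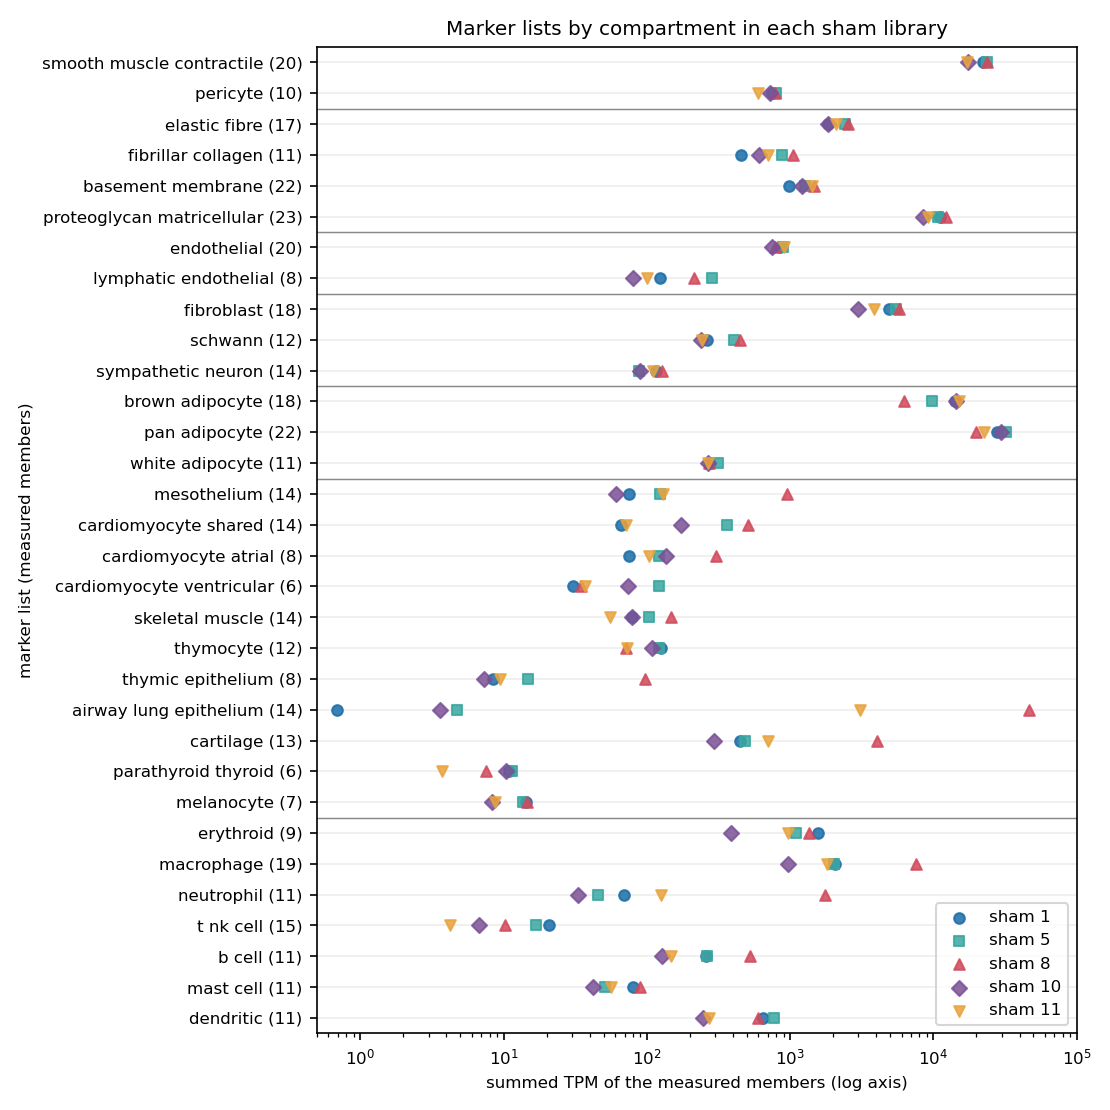
Summed TPM (log axis) of 32 marker lists in each of the 5 sham libraries, with 1 marker per library and the number of measured genes in brackets. Wall and fat lists span less than a factor of 4 across libraries, while the airway, cartilage, mesothelium, thymic epithelium, macrophage and neutrophil sums reach far higher in sham 8.

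Nerve genes were present at moderate levels. The 12 Schwann cell genes summed to 265, 403, 446, 240 and 244 TPM, and 3 of them had a library apart, against 11% of all genes examined. Pmp22, a myelin protein that fibroblasts also make, held 180 ± 46.7 TPM, S100b 41.9 ± 20.2 TPM and Scn7a 23.5 ± 4.97 TPM. Without sham 8 the sum averaged 288 ± 77.5 TPM (n = 4). Mbp, which compacts myelin, was at 9.96, 31.5, 16.3, 8.68 and 8.30 TPM. It had sham 5 apart and high, while the other two, Cadm4 (6.02, 12.6, 42.9, 11.8 and 6.06 TPM) and Sox10 (1.31, 2.19, 4.65, 1.82 and 1.97 TPM), had sham 8 high. Sympathetic neuron genes were low. After Uchl1 (79.9 ± 10.2 TPM) came Hand2 and Tubb3. The defining enzymes Th and Dbh, which make noradrenaline, averaged 0.497 and 0.436 TPM, and Dbh 0.173 TPM without sham 8 (n = 4). Of the 8 genes examined, 4 had a library apart, against 11% of all genes examined. Tubb3 (4.67, 1.48, 17.4, 4.12 and 2.63 TPM), Snap25 (0.135, 0.0480, 2.39, 0.272 and 0.375 TPM) and Nefl (0.0453, 0.0483, 2.32, 0.228 and 0.0538 TPM) had sham 8 high. Snap25 and Nefl were near 0 in the other libraries, so that the filter largely fixed their call. Hand2 was at 6.90, 9.65, 7.98, 7.21 and 19.2 TPM, with sham 11 apart.

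Perivascular fat gave the largest mean list sum outside mitochondria, although in sham 8 the airway and contractile sums were above it. Genes shared by all adipocytes summed to 27622, 32062, 19893, 29626 and 22604 TPM, or 2.64% of all TPM, and brown adipocyte genes to 14140, 9730, 6209, 14306 and 15058 TPM. Both sums were lowest in sham 8. Without sham 8 they averaged 27978 ± 4017 and 13308 ± 2419 TPM (n = 4). Sham 8 was the lowest library for 17 of the 18 brown adipocyte genes measured and for 14 of the 22 shared ones.

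Cfd, adipsin, which fat cells secrete, was at 5901, 7716, 3942, 4638 and 4327 TPM. Scd1, which desaturates fatty acids, was at 4919, 5789, 3832, 6818 and 2643 TPM. Car3, a carbonic anhydrase of fat and muscle, was at 3146, 4503, 2821, 3116 and 2152 TPM. These 3 did not share an order, since Scd1 was highest in sham 10 and the other two in sham 5. Adipoq, adiponectin, averaged 1172 ± 322 TPM, Fasn, the fatty acid synthase, 880 ± 360 TPM, and Pparg, the master regulator of adipocytes, 132 ± 29.3 TPM. Acly, which supplies acetyl-CoA to fatty acid synthesis, was at 265, 317, 409, 666 and 330 TPM, with sham 10 apart and high.

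Ucp1 was at 4725, 3466, 1822, 5485 and 5862 TPM, the eighth nuclear protein-coding gene by mean. Cox8b, a respiratory subunit of brown fat and heart, was at 3710, 2148, 1484, 2756 and 3000 TPM. Cidea, a protein of lipid droplets, was at 2529, 2101, 1506, 3002 and 2742 TPM. All 3 were lowest in sham 8 and second lowest in sham 5. For Ucp1 the highest library was 3.22 times the lowest. No member of the list had a library apart, against 11% of all genes examined. Zic1, a marker of the interscapular brown depot, had 4, 1, 0, 3 and 0 reads, a level near the floor, since a count of 0 allows up to 3 reads.

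White adipocyte genes were low, at 277, 314, 271, 268 and 269 TPM, with sham 5 apart by a small margin. Retn, resistin, gave most of it (158 ± 31.9 TPM), before Sncg (98.4 ± 17.97 TPM) and Nnat (8.55 ± 2.13 TPM). Leptin (Lep), which white fat secretes with its mass, was at 9.86, 8.56, 7.98, 6.52 and 3.15 TPM.

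Of the lists for neighbouring tissues, the airway list differed most between libraries. All 13 airway genes examined had sham 8 apart and high, as had 12 of 13 cartilage genes, against 7.12% of all genes examined. Members near 0 in the other libraries reach the minimum mean of 10 only through sham 8, which largely fixes their call. These counts are therefore a description. Bpifa1, a secreted defence protein of the upper airway, was at 0.396, 0.950, 27496, 0.499 and 1594 TPM. Scgb1a1, the secretoglobin of club cells, was at 0, 0, 15202, 2.27 and 1166 TPM. Scgb3a2, a relative from the same cells, was at 0, 0, 3241, 0.350 and 304 TPM. For these genes sham 8 came first, sham 11 second at under 10% of it, and the others were at or near 0. Alveolar surfactant genes were lower, with Sftpc averaging 7.87 TPM, or 0.556 TPM without sham 8 (n = 4). The airway list averaged 9905 TPM over all libraries, 775 TPM without sham 8 (n = 4) and 3.01 TPM without sham 8 and sham 11 (n = 3).

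Cartilage genes summed to 450, 481, 4019, 293 and 701 TPM. Cytl1 was at 386, 417, 2399, 246 and 611 TPM, so that it was not near 0 in any library. Chad, chondroadherin, was at 3.65, 4.95, 690, 4.68 and 23.9 TPM, and Col10a1, a collagen of hypertrophic cartilage, at 0.0489, 0.208, 532, 0.591 and 16.8 TPM. Their order was that of the airway genes. Without sham 8 the list averaged 481 ± 168 TPM (n = 4), and without both libraries 408 TPM (n = 3).

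**Figure D3:**
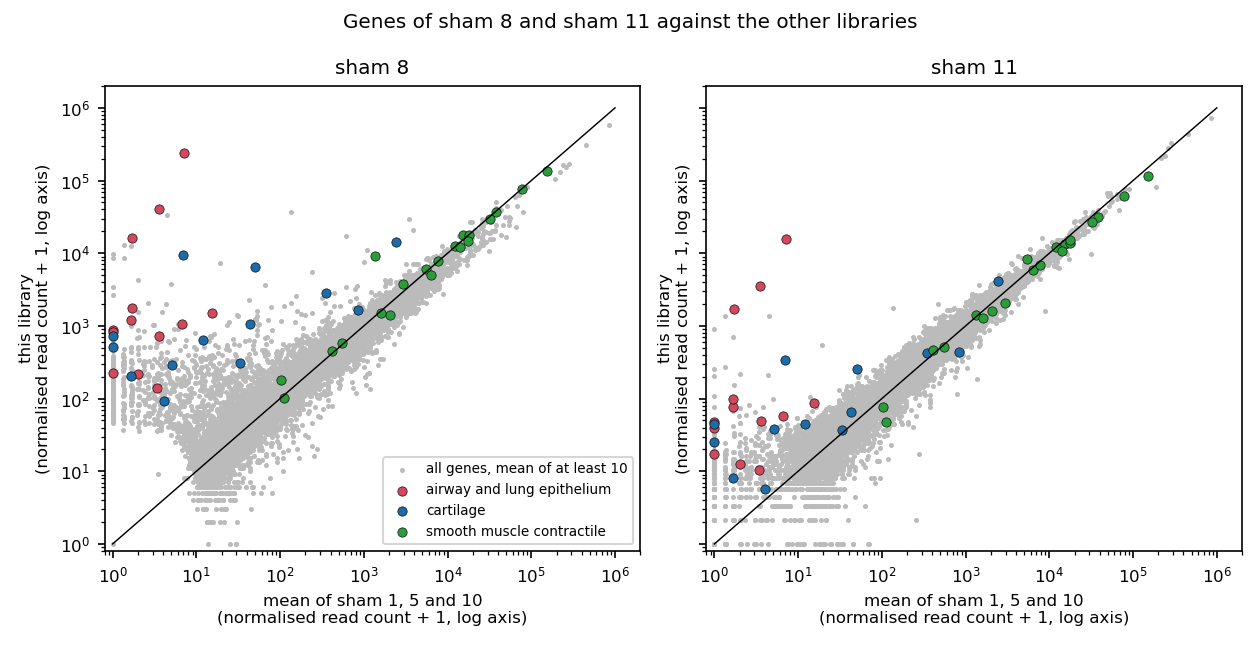
Normalised read count + 1 of each gene in sham 8 (left) and sham 11 (right) against its mean in sham 1, 5 and 10 (log axes), with airway, cartilage and contractile genes in colour and a line of equal counts. Most airway and cartilage genes lie far above the line in sham 8 and less far above it in sham 11, where Comp of the cartilage list lies below it. In sham 8, 496 genes are at least 10 times above sham 1, 5 and 10. Contractile genes lie near the line in both, except Des, which lies well above it in sham 8.

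Mesothelial genes summed to 75.2, 123, 951, 60.5 and 129 TPM, and the keratins Krt19 (5.04, 7.48, 350, 3.49 and 16.8 TPM), Krt8 (1.80, 6.17, 206, 2.12 and 11.9 TPM) and Krt18 (18.01, 19.6, 142, 9.76 and 27.9 TPM) carried the sham 8 value. Airway epithelium makes these keratins too. Upk3b, which marks mesothelium more narrowly and is named after its values were seen, was at 14.7, 28.2, 17.7, 13.3 and 19.2 TPM, with no high value in sham 8. Msln (6.10, 10.5, 151, 6.34 and 15.4 TPM), Upk1b (4.03, 7.03, 40.3, 2.43 and 4.88 TPM) and Muc16 (0.424, 0.477, 8.12, 0.327 and 0.649 TPM) did have sham 8 apart and high. So had the 3 keratins, which made 6 of the 13 genes examined, against 7.12% of all genes examined. The sum averaged 268 TPM over all libraries, 97.1 TPM without sham 8 (n = 4) and 86.3 TPM without both (n = 3). In the thymic epithelium list the sham 8 value came from Krt5 (0.209, 0.891, 86.5, 0.140 and 4.06 TPM), a basal keratin that the airway list also holds, and the thymic regulators Foxn1 and Aire averaged 0.0340 and 0.0381 TPM. The thymic epithelium sum averaged 27.4 TPM, 9.98 TPM without sham 8 (n = 4) and 10.2 TPM without both libraries (n = 3).

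Cardiac genes were present at low and uneven levels. Genes shared by all cardiomyocytes summed to 66.4, 365, 506, 174 and 72.1 TPM. Actc1 was at 20.6, 164, 353, 45.4 and 22.8 TPM. Myh6, the cardiac myosin heavy chain, was at 5.08, 58.5, 36.9, 31.9 and 4.33 TPM. Tnnt2, cardiac troponin T, was at 10.96, 18.6, 30.0, 12.9 and 10.9 TPM. Sham 1 and sham 11 were the lowest for Actc1, Myh6 and Tnnt2. No gene of the list had a library apart, against 11% of all genes examined. Without sham 8 the sum averaged 169 ± 140 TPM (n = 4) against 237 ± 193 TPM with it.

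Chamber genes did not follow 1 order. The ventricular light chain Myl2 was at 0, 40.2, 1.40, 21.4 and 0.0933 TPM and its partner Myl3 at 0.375, 43.7, 1.69, 20.6 and 1.25 TPM, so that sham 5 and sham 10 held nearly all of both. The atrial light chain Myl7 was at 20.5, 12.996, 112, 32.1 and 20.1 TPM, with sham 8 apart and high. Nppa, the atrial natriuretic peptide, had 0, 0, 30, 65 and 29 reads. Hey2, a factor that arteries also express, led the ventricular list with 25.3 ± 3.06 TPM, and Stard10 was second to Myl7 in the atrial one with 38.8 ± 26.9 TPM.

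Skeletal muscle genes summed to 92.8 ± 35.2 TPM. Casq1, a calcium store protein of fast muscle, held 39.9 ± 12.4 TPM, Myl1 26 ± 2.53 TPM and Tnnt3 1.26, 1.24, 45.1, 1.56 and 3.79 TPM. Of the 9 genes examined, 4 had a library apart, against 11% of all genes examined. Myh4, the myosin of the fastest fibres, was listed with 0 reads in all 5 libraries, and Myh1 and Myh2 averaged 0.0691 and 0.0522 TPM. In the thymocyte list, Cd1d1 gave 90.9 ± 20.2 of 99.9 ± 25.8 TPM, and Cd8b1 (4.54, 4.62, 0, 0 and 0.245 TPM) and Lck (3.14, 2.45, 0.994, 0.526 and 0.497 TPM) were highest in sham 1 and sham 5. Parathyroid and thyroid genes summed to 8.80 ± 3.22 TPM, most of it Tshr (6.94 ± 3.41 TPM), with Calca and Slc5a5 below 1 TPM by mean and Pth and Gcm2 at 0 reads. Melanocyte genes summed to 11.9 ± 3.17 TPM, with Mitf (7.52 ± 1.91 TPM), Kit (2.54 ± 1.08 TPM) and Mlana (0.843 ± 0.518 TPM) in front.

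Blood left a trace that varied 4.03-fold between libraries. Erythroid genes summed to 1554, 1093, 1351, 386 and 972 TPM, and sham 10 was the lowest for 8 of 9. Hbb-bs, a beta globin, was at 687, 491, 622, 173 and 450 TPM, Hba-a1, an alpha globin, at 552, 445, 558, 147 and 395 TPM, and Hba-a2 at 161, 57.5, 73.7, 19.6 and 46.7 TPM. The globin genes kept nearly 1 order, with sham 1 or sham 8 highest and sham 10 lowest. Between 54.8 and 74.5% of the 100-base windows of each globin are shared with its near-identical copy, so their separate levels are uncertain.

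Macrophage genes were the leading immune list, with 2046, 2031, 7556, 972 and 1807 TPM, or a mean of 1714 ± 507 TPM without sham 8 (n = 4) and 1683 TPM without sham 8 and sham 11 (n = 3). Cbr2, a carbonyl reductase of resident macrophages and of airway epithelium, was at 408, 464, 3958, 314 and 599 TPM. Lyz2, lysozyme, which airway and lung cells also make, was at 562, 550, 2824, 241 and 476 TPM. C1qa, a complement chain of macrophages, was at 299, 299, 159, 111 and 206 TPM. Cbr2 and Lyz2 had sham 8 apart and high, whereas C1qa was highest in sham 1 and sham 5. Sham 10 was the lowest library for 18 of the 19 macrophage genes, also on the deposited scale for the list as a whole.

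The neutrophil sum of sham 8 (69.5, 45.9, 1764, 32.9 and 126 TPM) was 1 gene. Ltf, lactoferrin, an iron-binding protein of neutrophil granules and of airway glands, was at 0.0444, 0.189, 1736, 0.223 and 62.3 TPM. S100a9 (35.8, 19.7, 11.2, 18.9 and 26.8 TPM) and S100a8 (17.9, 10.6, 5.77, 4.66 and 16.8 TPM), abundant in neutrophils themselves, were not high in sham 8, and Mpo had 0 reads. Without sham 8 the list averaged 68.6 ± 41.1 TPM (n = 4), and without both libraries 49.4 TPM (n = 3).

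Lymphocyte genes were low. T and NK cell genes summed to 20.9, 16.8, 10.3, 6.74 and 4.20 TPM, with Trac, Gzma and Nkg7 in front, and none of the 15 reached 1 TPM in every library. B cell genes summed to 265 ± 160 TPM, of which Igkc gave 148 ± 112 and Ighm 78.8 ± 45.6 TPM, followed by Ebf1 (25.5 ± 7.08 TPM), which adipocytes also express. Igkc was at 110, 132, 342, 65.5 and 88.6 TPM, with sham 8 apart and high. Mast cell proteases were present in every library, with Mcpt4 at 18.4 ± 5.44, Cma1 at 13.4 ± 4.65 and Tpsb2 at 10.8 ± 4.40 TPM. Antigen presentation genes were led by Cd74, the invariant chain, at 266, 343, 247, 99.7 and 113 TPM, H2-Eb1 at 178, 198, 157, 70.8 and 71.4 TPM and H2-Ab1 at 103, 130, 93.6, 36.7 and 38.8 TPM. For these 3 genes sham 10 and sham 11 were the lowest and sham 5 the highest.

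Genes in which variants cause heritable thoracic aneurysm were read in full: all 26 measured were at 1 TPM or more in every library. They summed to 16353 ± 2516 TPM, with Acta2, Myh11 and Flna (filamin A, 1377, 1720, 1565, 1274 and 1293 TPM) in front. After Bgn, Eln and Col3a1, the list went down through Tgfbr2 (62.7 ± 9.08 TPM), Fbn1 (57.5 ± 12.8 TPM), Tgfbr1 (54.5 ± 4.32 TPM) and Smad3 (18.7 ± 2.57 TPM) to Notch1 (3.18 ± 1.16 TPM). Their median coefficient of variation was 0.132, against 0.190 over all genes examined and, at like levels, 0.147 for means of 100 to 1000 normalised counts and 0.123 above. None was above 0.5, against 5.11% and 1.60% of all genes at these levels. Mylk was the only one with a library apart, against 11% of all genes examined. Foxe3 was not analysed here.

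Receptors for vasoactive signals were low. Npr1, the receptor of atrial natriuretic peptide, was at 71.7, 108, 91.7, 91.0 and 137 TPM. Adrb3, the adrenoceptor of fat, was at 80.5, 127, 86.9, 89.6 and 104 TPM. Adra1d, an adrenoceptor of the aorta, was at 16.5, 18.5, 26.1, 22.7 and 39.0 TPM. The first of these was highest in sham 11, the next in sham 5, and the 3 genes had no library apart. Agtr1a, the main angiotensin receptor, averaged 3.53 ± 0.873 TPM, and Agtr2 0.181 ± 0.166 TPM.

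Transcription factors of the wall were led by Heyl (53.5 ± 7.66 TPM), a Notch target, Srf and Twist1 (28.7 ± 10.1 TPM). Sham 8 was the highest library for 23 of the 39 factors and sham 1 the lowest for 20. Nkx2-5, a factor of the heart, averaged 0.0759 TPM, Gata4 1.45 TPM and Tbx20 2.87 TPM.

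Hox genes record the position of a tissue along the body axis. Of 39 on the list, 29 had a sham read, 9 were not analysed here, and Hoxc13 was listed with 0 reads. Hoxa5 led with 48.1, 31.1, 34.7, 35.0 and 24.7 TPM, before Hoxa2 (6.13, 11.6, 14.5, 11.5 and 13.02 TPM) and Hoxa4 (7.69, 8.49, 12.2, 8.80 and 13.2 TPM). Sham 11 was the lowest library for 17 of the 29, and the sum of sham 11, 85.1 TPM, stood apart from the 126 to 139 TPM of the others. Low values in sham 11 were found in several paralogue groups, with the genes that follow named after their values were seen. Hoxb5 was the only one of the 22 examined with a library apart, against 11% of all genes examined. It was at 3.35, 3.28, 3.20, 3.32 and 0.588 TPM. Hoxb6 was at 8.42, 9.88, 15.5, 8.71 and 1.11 TPM, and Hoxb7 at 8.53, 7.92, 4.72, 7.28 and 0.589 TPM. Hoxc6 was at 4.83, 4.88, 2.49, 3.97 and 0.454 TPM. Hoxc8 had 4.001, 3.51, 1.99, 3.48 and 0 TPM. In these 5 genes sham 11 was the lowest library, while for Hoxa2 and Hoxa4 it was among the higher ones.

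Genes that respond to handling or time of day were read as well. Immediate early genes, which come on within minutes of a stimulus, summed to 617, 611, 585, 747 and 647 TPM, led by Dusp1 (125 ± 27.0 TPM), Btg2 (75.4 ± 22.1 TPM) and Nr4a1 (66.9 ± 17.8 TPM). None of the 18 had a coefficient of variation above 0.5, against 5.11% of genes with means of 100 to 1000 normalised counts and 1.60% above. Fos, the classic member, was at 22.8, 22.1, 9.67, 18.8 and 7.35 TPM. Heat shock and hypoxia genes summed to 2870 ± 393 TPM, led by Hspb1 (799 ± 179 TPM), Hspa8 (735 ± 149 TPM) and Pdk4 (479 ± 141 TPM). Ddit4, a stress gene, was at 61.1, 54.5, 46.7, 147 and 48.1 TPM, with sham 10 apart and high.

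Clock genes differed between libraries. Their sum was 245, 324, 414, 355 and 483 TPM, and sham 11 was the highest for 9 of the 15 and sham 1 the lowest for 10. The output gene Dbp was at 16.6, 29.7, 64.7, 46.9 and 86.3 TPM, and the period genes Per1 at 7.02, 12.5, 17.6, 27.7 and 31.0 TPM and Per2 at 9.13, 17.4, 19.8, 17.9 and 36.6 TPM. Sham 1 was the lowest for all 3 and sham 11 the highest, but these genes were named after their values were seen. The list did not move as 1, since sham 11 was also the lowest for 3 of the 15. Arntl averaged 6.20 TPM without sham 8 and 7.50 TPM without sham 8 and sham 11. Clock averaged 18.1 and 19.8 TPM in the same way, so sham 11 was on the low side for both. Tef (71.8 ± 17.3 TPM), Nr1d2 (60.5 ± 10.6 TPM) and Nr1d1 (58.8 ± 9.55 TPM), which repress or carry the rhythm, were the most abundant of the list. The sources used here do not give the hour of sampling, and its part in this order was not tested.

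Genes often used as references differed in steadiness. On the normalised scale, Eef1a1 had a coefficient of variation of 0.0818, Hprt 0.0972, Actb 0.209 and B2m 0.310. Gapdh had 552, 84.7, 118, 1754 and 116 normalised counts, with sham 10 apart and high. Of its 100-base windows, 18.2% occur in transcripts of other genes, 74 in number, so that its level is uncertain. It was read at 18.5 ± 24.2 TPM, and the part of this sharing in that level was not tested.

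The libraries were alike across genes, with sham 8 the least so. Across the 15810 genes, Spearman's rho of log2(normalised count + 1) between 2 libraries was 0.970 to 0.988 for the pairs without sham 8 and 0.921 to 0.943 for the 4 pairs with it. Pearson's r ranged from 0.858 to 0.980 over the 10 pairs. Left without the 1232 genes for which sham 8 was apart, it ranged from 0.958 to 0.979, a rise that the choice of genes fixes for the pairs with sham 8. These correlations are across genes of the same annotation, which are not independent replicates. Closest by both measures were sham 1 and sham 5.

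The median coefficient of variation was 0.190, and 0.165 once the part that counting alone gives was subtracted. It was 0.396 for genes with means of 10 to 100 normalised counts, 0.147 from 100 to 1000 and 0.123 above. Without sham 8 the median was 0.159, and the share of genes above 0.5 was 8.48% in place of 13.7%. Of the 1733 genes with a library apart, sham 8 was the high one for 1125 and the low one for 107. The counts of high genes in sham 1, 5, 10 and 11 were 103, 84, 76 and 98. At least 10 times above the highest of the other 4 libraries were 376 genes in sham 8, 2 in sham 1, 1 in sham 11 and 0 in the other two.

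**Figure D4:**
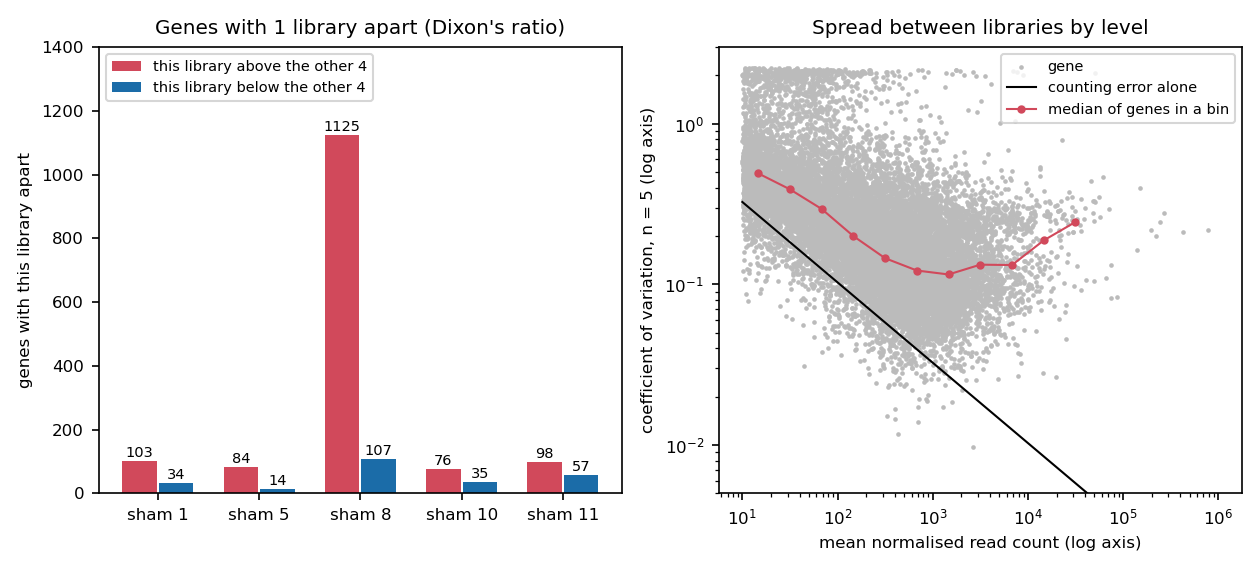
Left, the number of genes for which each library stood apart by Dixon's ratio, above or below the other 4, with sham 8 high for 1125 genes and no other library for more than 103. Right, the coefficient of variation of each gene (log axis) against its mean normalised count (log axis), with the median in bins of level and the line that counting error alone would give.

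The genes with the largest spread were all high in sham 8. The 15 protein-coding genes at the top, with means of at least 100 normalised counts, included Pigr, which carries antibodies across epithelium (0.114, 0.324, 166, 0.0383 and 3.75 TPM), Sec14l3 (0.0550, 0, 549, 0 and 15.4 TPM) and Foxa1, a factor of airway epithelium (0, 0, 30.9, 0 and 1.09 TPM). Cfap65, Cfap44, Ak7, Ttc21a and Cdhr3, which serve or mark ciliated cells, were in this set, as were Bpifb1, A2ml1, Aqp3, Meltf, Slc44a4, Col10a1 and Ltf. For each of the 15, sham 11 was the second highest library. Without sham 8, Cfap65 averaged 0.0640 TPM and A2ml1 0.534 TPM, so such genes reach a mean of 100 only through sham 8. Their place at the top was largely fixed by this choice and is a description.

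Some of the genes at the steady end serve translation, transcription or splicing. Eif3b, a subunit of a translation initiation factor, had 2627, 2611, 2598, 2663 and 2641 normalised counts, and Cpne2 had 427, 434, 438, 432 and 426. Polr3f, a subunit of RNA polymerase III, had 414, 399, 402, 409 and 409 normalised counts. The splicing factors Tra2b and Srsf1, and Pdcd4, Lrsam1, Ubr7, Lsm14a, Vps29, Golga5, Cacfd1, Irf3, Slc9a8 and Ipo11, made up the rest of the 15. Their coefficients of variation ran from 0.00967 to 0.0230, and no spread was left in any of them once counting error was subtracted. They were picked as the lowest of many genes, so their values are a description.

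Several libraries had a few genes of their own. Sham 1 was apart and high for Hba-a2, the amino acid transporter Slc7a8 (8.17, 3.49, 3.24, 2.001 and 2.55 TPM) and Rsph3a (30.6, 16.0, 19.1, 12.8 and 14.2 TPM). Sham 5 was apart for Mbp and the lactate receptor Hcar1 (15.5, 52.2, 25.1, 16.0 and 16.2 TPM). Sham 8 was led by Bpifa1, Bpifb1 and the antimicrobial Reg3g (0, 0, 828, 0 and 66.1 TPM), and sham 10 by Gapdh, Ddit4 and Acly. Sham 11 was apart for Hand2, Zfp36l2 (23.0, 42.7, 40.1, 29.02 and 79.1 TPM) and, on the low side, the apelin receptor Aplnr (8.32, 8.25, 9.20, 7.08 and 3.15 TPM).

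Ratios of partner genes within a library do not depend on scaling between libraries, and several were tight. Hbb-bs to Hba-a1 was 1.25, 1.10, 1.11, 1.18 and 1.14, a coefficient of variation of 0.0498, while the 2 globins alone had 0.410 and 0.400 on the TPM scale. Col4a1 to Col4a2, chains of the same collagen, had 0.0821, Myh11 to Acta2 had 0.0904, and Col1a1 to Col1a2 had 0.127. Other partners were less tight, with 0.183 for Sdha to Sdhb, 0.229 for Lamb1 to Lamc1 and 0.250 for Col5a1 to Col5a2. Tagln to Acta2 had 0.271, above the 0.180 and 0.172 of the genes alone. Ratios between compartments spread further. Acta2 to Ucp1, muscle against brown fat, was 2.44, 3.37, 6.02, 1.52 and 1.40, with the highest library 4.303 times the lowest. Col1a1 to Ucp1 had a coefficient of variation of 0.814. Partners in the heart also spread, with 0.795 for Myh6 to Tnnt2. Even within fat, Ucp1 to Adipoq was 3.28, 2.21, 2.27, 5.03 and 6.11, highest in sham 11 and sham 10. Myl7 to Myl2 could not be formed in sham 1, where Myl2 had 0 reads.

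**Figure D5:**
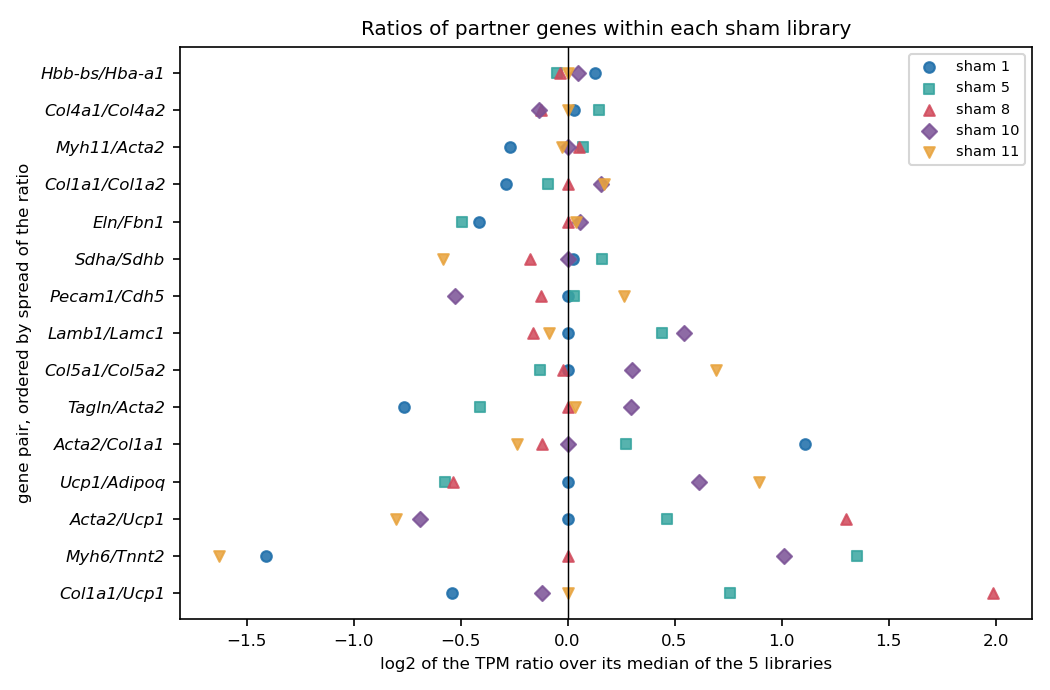
For each pair of genes, log2 of the TPM ratio in each library over the median of its 5 values, with pairs ordered by spread and 1 marker per library. Globin, paired collagen chains and contractile pairs stay within 1 log2 unit of 0, while Acta2/Col1a1, Acta2/Ucp1, Col1a1/Ucp1 and Myh6/Tnnt2 reach beyond 1.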

How the data were processed

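Total RNA of frozen, powdered aorta was captured by its poly(A) tails, fragmented and primed with random hexamers, per the labels' protocols. HISAT2 2.0.5, featureCounts 1.5.0-p3, StringTie and GRCm39 are named, with no strand setting, per the submitters' processing notes. The authors deposited 1 table of normalised counts (unit: signal), in which each value is a whole number of reads times 1 factor per library. The factor lay between 0.974 and 1.16 units per read, and 100% of values came out whole within 0.02 reads. All 5 sham columns were used, and the other 7 libraries were not analysed here.

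Of 30130 genes listed, 28641 were matched by symbol to an exon length (union of exons, GENCODE M21). They held 98.5 to 98.7% of the reads, and TPM was computed from these. Spread was computed on the deposited normalised counts, over genes with a mean of at least 10, as the coefficient of variation and Dixon's ratio (critical value 0.71 for 5 libraries). No test between groups was made. Reads were compared pairwise by chi-square, and the lowest value per degree of freedom was 20.5 (sham 1 and sham 5), so each was counted as its own library. Counting error sets the precision of low values, and a count of 0 allows up to 3 reads.

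The named genes are the 25 leading nuclear protein-coding genes, the 3 leading mitochondrial and long non-coding ones, 3 per list, the 15 steadiest and 15 most variable protein-coding genes with a mean of at least 100, 3 per library among those apart, the genes of the ratios and 6 actins. 2 genes that the lists and rules held are not reported here and were left out of list sums and ratios. The members and lists were chosen with earlier results of these data known. Alternatives were another length, another denominator, other filters, other scalings (TMM in edgeR 4.0.16) and leaving out each library. Lengths and actin coding sequences come from an annotation of GRCm38, an older build than the one named. Actin coding sequences stand in for the proteins, which were not used here. Python 3.11.15, numpy 2.4.6, pandas 2.3.3, scipy 1.17.1 and R 4.3.3 were used.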

Additional observations from a re-analysis of the deposited data

Results flagged for a closer look

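Dixon's ratio was above 0.71 for 9 of 42 list sums, 45 of 185 named genes and 1 of 15 ratios of gene pairs, meaning that 1 library lay far from the other 4. Chance alone gives this in about 1 in 20 groups of independent, normally distributed values, which these need not be, since some lists share members. Over all 15810 genes examined, 11% were marked. Some of the named genes were chosen for a library that stood apart, or for their large spread, so their number is no measure of how often this happened.

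Sham 8 was the high library for 7 of the 9 list sums. The ratio was 0.946 for neutrophil, 0.933 for airway and lung epithelium, 0.923 for mesothelium, 0.918 for thymic epithelium, 0.891 for cartilage, 0.837 for macrophage and 0.732 for atrial cardiomyocyte genes. Sham 5 was high for the white adipocyte sum, with a ratio of 0.794, although the sums differed by a factor of 1.17. Sham 11 was low for the Hox sum, with a ratio of 0.759.

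For genes of the airway and of cilia, with sham 8 high, the ratio was 0.934 for Bpifa1, 0.912 for Scgb1a1, 0.893 for Scgb3a2, 0.97 for Bpifb1, 0.909 for Reg3g, 0.975 for Pigr, 0.968 for Sec14l3, 0.978 for Cfap65, 0.972 for Cfap44, 0.986 for Ttc21a, 0.966 for Ak7, 0.98 for Cdhr3 and 0.96 for Foxa1. Among keratins it was 0.957 for Krt19, 0.944 for Krt8, 0.849 for Krt18 and 0.948 for Krt5. Other genes with large spread in sham 8 had 0.969 for A2ml1, 0.969 for Aqp3, 0.972 for Meltf and 0.964 for Slc44a4. Cartilage genes had 0.967 for Chad, 0.964 for Col10a1 and 0.814 for Cytl1. Listed under immune cells were Cbr2 (0.919), Lyz2 (0.846), Ltf (0.959) and Igkc (0.773), and under muscle and nerve Myl7 (0.728), Tnnt3 (0.931) and Tubb3 (0.737), again with sham 8 high.

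In the other libraries the genes were few. Sham 1 was high for Hba-a2 (0.718), Slc7a8 (0.84) and Rsph3a (0.863), and for the ratio of Acta2 to Col1a1 (0.725), which was 187, 105, 79.97, 86.8 and 73.8. Sham 5 was high for Mbp (0.716), Hcar1 (0.824) and Acta1 (0.931), the last with 7, 122, 4, 11 and 6 reads. Sham 10 was high for Gapdh (0.72), Ddit4 (0.794), Acly (0.838) and, within a narrow range of 693 to 716 normalised counts, Pdcd4 (0.861). Sham 11 was high for Hand2 (0.834) and Zfp36l2 (0.722) and low for Casq1 (0.734) and Aplnr (0.783).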

How the results depend on the processing

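Of the 25 leading genes, 11 remained when reads scaled by depth alone (RPM) replaced TPM, and between 20 and 25 under the other alternatives. RPM also moved 19 of the 42 list sums by over 1.5-fold. Leaving out sham 8 moved 6 by as much, those of airway, cartilage, mesothelium, macrophage, neutrophil and thymic epithelium genes. When the median of log2(TPM + 1) replaced the mean, 24 of 42 lists kept their highest library and 32 their lowest, against 30 to 42 and 29 to 41 under the other alternatives. The median coefficient of variation was 0.302 with a minimum mean of 1. Genes with a library apart numbered 3104 with that minimum, 765 with a minimum of 100, 1004 on the log2 scale, 1768 with library totals and 1715 with TMM. Leaving out 1 library at a time gave 807 (without sham 8) to 1664, with the critical value for 4 libraries. Scaling by library totals moved the median gene by -0.15, -0.05, 0.06, -0.18 and -0.06 on the log2 scale. Genes with few reads were limited by depth.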
